A study of Mus musculus with 7 samples.

Results

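The cells described here came from inter-implantation uterus of Kdm6b cKO mice (KO) and control mice (WT) before pregnancy and early in it. The authors' annotation of each cell gives its location, genotype and timepoint, and the cells were taken by location (IIS, the inter-implantation site) and timepoint (0, 5 and 8). They numbered 22617 of 107443 cells and made up 6 of the 28 specimens of the series. The KO specimens were a non-pregnant uterus (day 0), gestation day 5 and gestation day 8, and the WT specimens were the same 3 stages. The day 0 mice of both genotypes were not pregnant and had received 0.2 mg of progesterone per day over 3 days, so that day 0 is a hormone-primed uterus and not an untreated one. Each replicate pooled the uteri of 2 mice for the non-pregnant specimens and for the stage that the protocol names as gestation day 5.5, while for day 8 the sources used here do not say how many mice went into a specimen. Nor do they name the mice's ages, their strain or the Cre driver of the conditional knockout. There was 1 specimen per genotype and day, so the 3 days supplied the 3 pairs over which KO was compared with WT.

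Kdm6b encodes a histone demethylase that removes methyl groups from lysine 27 of histone H3, a mark of silenced genes. In the mouse, progesterone prepares the uterus for the embryo, implantation follows early in gestation, and the stroma around each embryo then turns into decidua. The tissue between implantation sites keeps the layers of the uterine wall (luminal and glandular epithelium, stroma, smooth muscle, vessels and immune cells) without the decidua and placenta of a site that holds an embryo.

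The deposited annotation holds no expression value of any gene. No marker and not the level of Kdm6b itself could be read, so neither the genotype labels nor any cell type was checked against a gene, and clusters are called by the numbers the authors gave them. The authors' Louvain clusters at resolution 0.2 are called coarse clusters and those at resolution 2 fine clusters, and the same number at both resolutions names different groups of cells. KO specimens had 4177, 3310 and 4157 cells at days 0, 5 and 8, against 3807, 3440 and 3726 cells in WT specimens. All 6 specimens were hashed, mixed and run in the same 2 pools of the third experiment, so the genotypes shared every droplet run. Median UMIs per cell were 5691, 5589.5 and 6983 in KO at days 0, 5 and 8, against 6376, 3907 and 5467 in WT. The 2 pools shared 37 barcode sequences, 6 of them assigned to the same specimen in both. A share is a percentage of a specimen's cells with an exact 95% binomial interval, which covers counting error only. Shares add to a fixed total, so a higher share of one cluster lowers the others, and more cells of a kind in the tissue and better recovery of that kind cannot be told apart.

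Coarse cluster 1 and fine cluster 35 took a larger share of KO than of WT cells before pregnancy, at day 5 and at day 8, with intervals apart on each of the 3 days. Neither passed the test over the 3 pairs. Of 15 coarse clusters with at least 10 cells per specimen on average, coarse cluster 1 was the only one on the same side of WT with intervals apart on every day (6.67%), and fine cluster 35 was the only such one of 45 fine clusters (2.22%). In edgeR's quasi-likelihood test of KO against WT with the day as a term, 0 of 45 fine clusters (0.0%) and 0 of 15 coarse clusters (0.0%) had a Benjamini-Hochberg adjusted p under 0.05. At an unadjusted p under 0.05 there were 3 fine and 1 coarse clusters. DESeq2 called 1 fine cluster, number 35, and 0 coarse clusters, and limma on logit shares called 0 fine and 0 coarse clusters, with 4 and 1 at an unadjusted p under 0.05.

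Fine cluster 35 held 203 of the cells. It took 2.68% of KO cells at day 0 (interval 2.21 to 3.22), against 0.499% of WT cells (0.301 to 0.778). At day 5 the shares were 0.967% in KO (0.662 to 1.36) and 0.0872% in WT (0.0180 to 0.255). At day 8 they were 0.722% in KO (0.487 to 1.03) and 0.188% in WT (0.0756 to 0.387). The KO share was thus above the WT share on each day, and both genotypes had their highest share before pregnancy. These percentages rest on 112, 32 and 30 KO cells, against 19, 3 and 7 WT cells. Over the 3 pairs the log2 difference was 2.51 (SE 0.44) with an adjusted p of 0.0684 (edgeR). The adjusted p was under 0.05 in 7 of 12 other settings, and over those 12 it lay between 0.000861 and 0.756 while the log2 difference lay between 1.91 and 3.32. The adjusted p was 0.0198 without the day 0 pair, 0.242 without the day 5 pair and 0.894 without the day 8 pair (edgeR).

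All cells of fine cluster 35 lay in coarse cluster 3, and within that coarse cluster its weight differed between genotypes as well. It made up 49.8% of the KO cells of coarse cluster 3 at day 0, against 14.4% of the WT cells. At day 5 it made up 17.98% in KO and 1.34% in WT, and at day 8 it made up 22.1% in KO and 6.73% in WT. Coarse cluster 3 as a whole did not keep one side. It took 5.39, 5.38 and 3.27% of KO cells at days 0, 5 and 8, against 3.47, 6.51 and 2.79% of WT cells. Its largest other fine parts were clusters 14, 15, 45 and 52. Fine cluster 45 was lower in KO on all 3 days with overlapping intervals on each. Fine cluster 52 was also lower in KO on all 3 days, with intervals apart at day 5. On that day fine cluster 52 made up 11.2% of the KO cells of coarse cluster 3 and 48.2% of the WT cells.

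Fine cluster 35 was RNA-rich, with a median of 13330 UMIs and 3415 genes per cell. Its median mitochondrial share was 5.97% of UMIs, against 2.18 to 3.36% in coarse clusters 0, 2, 7 and 12. Coarse cluster 8 was at 4.25%, fine clusters 14 and 17 of coarse cluster 3 at 4.62 and 4.59%, and fine cluster 29 higher at 9.31%. Median UMIs of fine cluster 35 were 14091.5, 13150.5 and 10569 in KO at days 0, 5 and 8, against 18214, 19410 and 14549 in WT. The KO cells were thus the shallower ones in this cluster. With only the cells of at most 10% mitochondrial UMIs KO was above WT by 2.26 on the log2 scale (SE 0.50, adjusted p 0.225, edgeR). The pools of one specimen were runs of the same cell mixture. In the KO day 0 specimen the cluster took 2.15% of cells in pool 9 and 3.34% in pool 10, against 0.554% and 0.426% in the WT specimen. KO was above WT in each pool on each day. In pool 9 alone KO was above WT by 1.91 on the log2 scale (SE 0.67, adjusted p 0.220, edgeR), and no fine or coarse cluster there kept one side with intervals apart on every day.

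Coarse cluster 1 held 786 cells. It took 4.76% of KO cells at day 0 (interval 4.14 to 5.45), against 3.23% of WT cells (2.69 to 3.84). At day 5 it took 3.81% in KO (3.18 to 4.52) and 2.01% in WT (1.56 to 2.53), and at day 8 it took 4.31% in KO (3.71 to 4.97) and 2.42% in WT (1.95 to 2.96). The lowest KO share of the 3 days was above the highest WT share. Over the pairs this was 0.77 on the log2 scale (SE 0.14, adjusted p 0.102, edgeR). In the 12 other settings the difference lay between 0.60, with TMM factors, and 0.87 with adjusted p between 0.109 and 0.897. Leaving out the day 0 pair gave an adjusted p of 0.000375, and leaving out the day 5 or the day 8 pair gave 0.735 and 0.995 (edgeR). Cells of this cluster had a median of 2602 UMIs, 19.0% of UMIs from ribosomal protein genes, and phase calls of S in 12.8% and G2M in 12.1%.

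Within coarse cluster 1, fine cluster 3 stood furthest apart. It took 0.838, 1.21 and 1.56% of KO cells at days 0, 5 and 8, against 0.447, 0.116 and 0.671% of WT cells. Intervals overlapped at day 0 and were apart at days 5 and 8. Over the pairs fine cluster 3 was 1.65 higher on the log2 scale (SE 0.56, adjusted p 0.526, edgeR). Fine cluster 8, the largest part of coarse cluster 1, took 2.61, 1.63 and 1.35% of KO cells, against 1.58, 1.19 and 1.13% of WT cells, with intervals apart only at day 0. The largest part of the KO excess of coarse cluster 1 was therefore in fine cluster 8 before pregnancy and in fine cluster 3 at days 5 and 8. Fine cluster 27, of whose cells 71.8% lay in coarse cluster 1, took 1.15, 0.725 and 1.03% of KO cells, against 1.26, 0.785 and 0.698% of WT cells, and did not keep one side.

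**Figure D1:**
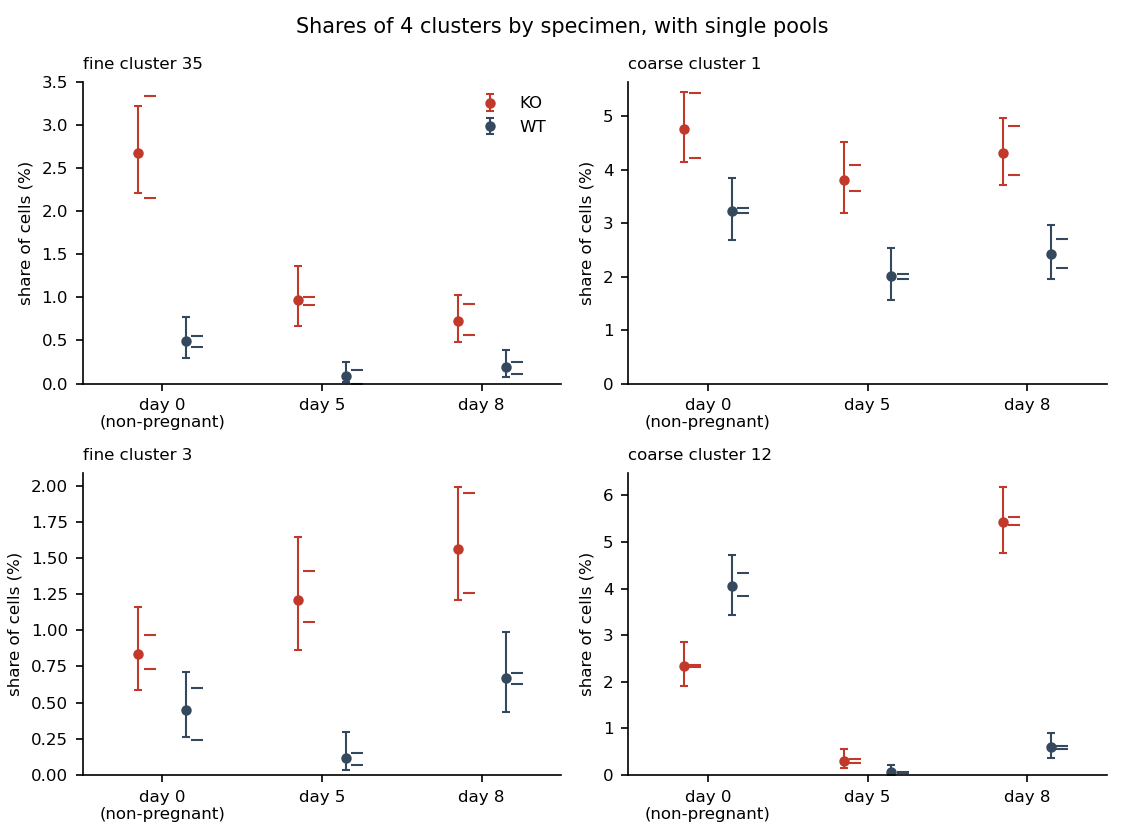
Share of each specimen's cells (%, y axis) in fine cluster 35, coarse cluster 1, fine cluster 3 and coarse cluster 12 by day (x axis), KO left of WT; points are specimens with exact 95% binomial intervals and short dashes are the single pools. KO lies above WT on all 3 days in the first 3 panels, while coarse cluster 12 has KO at 2.35% against 4.05% in WT at day 0 and KO at 5.44% against 0.590% in WT at day 8.

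One side was kept on all 3 days by 13 of 45 fine (28.9%) and 2 of 15 coarse clusters (13.3%). How many would do so without a genotype difference was not tested. Of 45 fine clusters, KO was higher on all 3 days in 9 (20%) and lower on all 3 in 4 (8.89%). The higher ones were fine clusters 3, 4, 5, 8, 13, 16, 30, 35 and 50, and the lower ones were fine clusters 1, 45, 51 and 52. Among coarse clusters, KO was higher on all 3 days in 1 of 15 (6.67%), coarse cluster 1, and lower on all 3 in 1 of 15 (6.67%), coarse cluster 8. Coarse cluster 8 took 10.7, 7.01 and 6.86% of KO cells at days 0, 5 and 8, against 10.8, 8.52 and 8.53% of WT cells, with intervals overlapping on each day. On the log2 scale this came to -0.20 (SE 0.13, adjusted p 0.822, edgeR). Fine clusters 4, 5 and 13 lie wholly in coarse cluster 0, so these 3 small parts of the largest cluster kept a side that the whole did not. Of the cells of fine cluster 30, 62.3% lay there too. Intervals of fine clusters 5 and 13 overlapped on each day, and those of fine cluster 4 were apart only at day 5. Fine cluster 4 took 0.694, 1.33 and 2.55% of KO cells, against 0.499, 0.378 and 1.74% of WT cells, or 0.91 on the log2 scale (SE 0.38, adjusted p 0.526, edgeR).

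On single days, intervals were apart in more coarse clusters than kept a side on all days. Among fine clusters this held at days 5 and 8 and not at day 0. Intervals were apart at day 0 in 11 of 45 fine (24.4%) and 8 of 15 coarse clusters (53.3%). At day 5 they were apart in 18 fine (40.0%) and 6 coarse clusters (40.0%), and at day 8 in 15 fine (33.3%) and 7 coarse clusters (46.7%). Such intervals leave out the difference between animals, which 1 specimen per genotype and day does not measure. Each day was instead tested in 1 fit of all 28 specimens, over 51 fine and 17 coarse clusters. That fit takes its spread from the replicated strata of the series. None of these strata is inter-implantation, where each genotype and day has 1 specimen. In it edgeR called 0 clusters at either resolution on any of the 3 days. Fine clusters 52 and 60 and coarse cluster 18 were not among the clusters tested. In that fit 1 cluster had an unadjusted p under 0.05, fine cluster 3 at day 5, and the difference between any 2 of the days was past an adjusted p of 0.05 in 0 clusters, with 0 at an unadjusted p under 0.05. DESeq2 and limma were not run on single days.

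The sides of days 5 and 8 resembled each other more than either resembled the non-pregnant pair. KO was on the same side of WT at days 5 and 8 in 33 of 45 fine clusters, at days 0 and 5 in 18 and at days 0 and 8 in 19. Spearman's rho of the log2 ratio of shares across these 45 clusters was 0.61 between days 5 and 8, -0.17 between days 0 and 5 and -0.12 between days 0 and 8. The clusters of a specimen share its total, and KO cells were deeper than WT cells on both of days 5 and 8, so these are descriptions without a test. Without the day 0 pair, edgeR called 7 fine clusters, of which 3, 4, 35, 39 and 40 were higher and 52 and 60 lower in KO, and 2 coarse clusters, 1 and 12, both higher. Without the day 5 pair or without the day 8 pair it called 0 at either resolution. The fit without day 0 rests on 2 pairs. Fine cluster 60 had 0 cells in both genotypes at day 8, so its call rests on day 5 alone. Fine clusters 39 and 40 had 4 and 7 KO cells at day 5, against 0 and 2 WT cells.

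**Figure D2:**
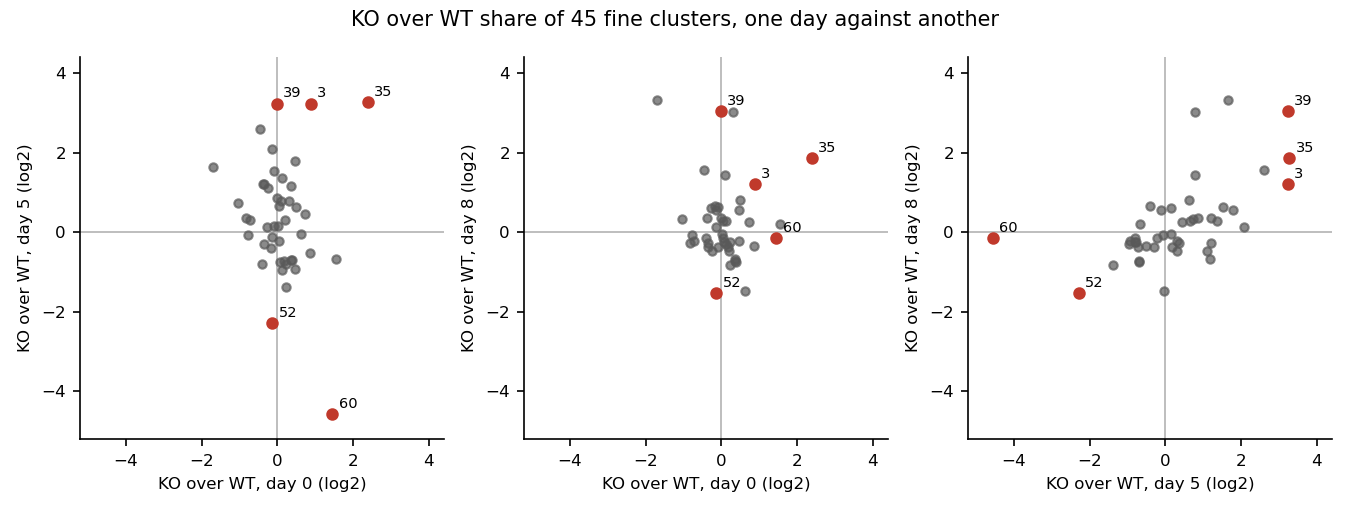
Log2 ratio of the KO share over the WT share of 45 fine clusters on one day (x axis) against another day (y axis), each share computed with 0.5 cells added; 5 clusters are labelled by number. Fine clusters 35 and 3 lie in the upper right quadrant in all 3 panels, and points follow the diagonal only between days 5 and 8 (rho 0.61).

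The largest coarse cluster was on one side of WT at days 0 and 8 and on the other at day 5. Coarse cluster 0 took 29.0% of KO cells at day 0 (interval 27.6 to 30.4), against 32.9% of WT cells (31.4 to 34.4), and at day 8 it took 38.1% in KO (36.6 to 39.6) and 41.4% in WT (39.8 to 43.0). At day 5 it took 33.4% in KO (31.8 to 35.1) and 16.8% in WT (15.5 to 18.1). KO was thus lower on 2 days and higher on the other, and intervals were apart on each. The log2 difference over the pairs was 0.23 (SE 0.39, adjusted p 0.889, edgeR) and turned to -0.15 (SE 0.08, adjusted p 0.735) without the day 5 pair. Its 2 largest fine parts had the same order. Fine cluster 0 took 11.6, 9.43 and 11.02% of KO cells at days 0, 5 and 8, against 13.9, 4.36 and 15.3% of WT cells. Fine cluster 2 took 7.83, 14.1 and 11.4% of KO cells, against 10.1, 6.13 and 13.7% of WT cells. Intervals of both were apart on every day, with KO lower, higher and lower. Fine cluster 6, the next part in size, took 4.79, 5.17 and 8.28% of KO cells, against 4.81, 2.85 and 6.47% of WT cells, with intervals apart at days 5 and 8.

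In the WT day 5 specimen, coarse clusters 2 and 7 had larger shares than in KO. Coarse cluster 2 was at 15.0% in KO and 22.1% in WT at day 5, and coarse cluster 7 was at 10.2% in KO and 16.9% in WT. In both, KO had been the higher one at day 0, with coarse cluster 2 at 13.0% in KO and 8.75% in WT and coarse cluster 7 at 10.99% in KO and 8.27% in WT. Fine cluster 11, most of coarse cluster 7, took 6.73, 7.55 and 5.05% of KO cells at days 0, 5 and 8, against 5.17, 12.2 and 8.48% of WT cells, with intervals apart on each day. Coarse cluster 11, of which fine cluster 18 is nearly the whole, took 6.10, 7.31 and 5.46% of KO cells at days 0, 5 and 8, against 6.88, 9.62 and 3.49% of WT cells, so that KO was lower at day 5 and higher at day 8 with intervals apart on both. Coarse cluster 18, whose 64 cells are those of fine cluster 60 and whose median was 38264 UMIs, was almost all in the WT day 5 specimen. It held 2 KO and 61 WT cells at day 5, or 0.0604% (interval 0.00732 to 0.218) and 1.77% (1.36 to 2.27), with 1 cell in KO and 0 in WT at day 0 and 0 in both at day 8. Taken as 3 counts of the specimen's total, a count of 0 allows a share of up to 0.0788% in the WT specimen of day 0, and at day 8 of up to 0.0722% in KO and 0.0805% in WT. Fine cluster 52, of whose cells 48.7% had under 500 genes, was at 0.168, 0.634 and 0.0481% in KO at days 0, 5 and 8, against 0.184, 3.17 and 0.161% in WT, or -1.53 on the log2 scale (SE 0.60, adjusted p 0.526, edgeR).

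**Figure D3:**
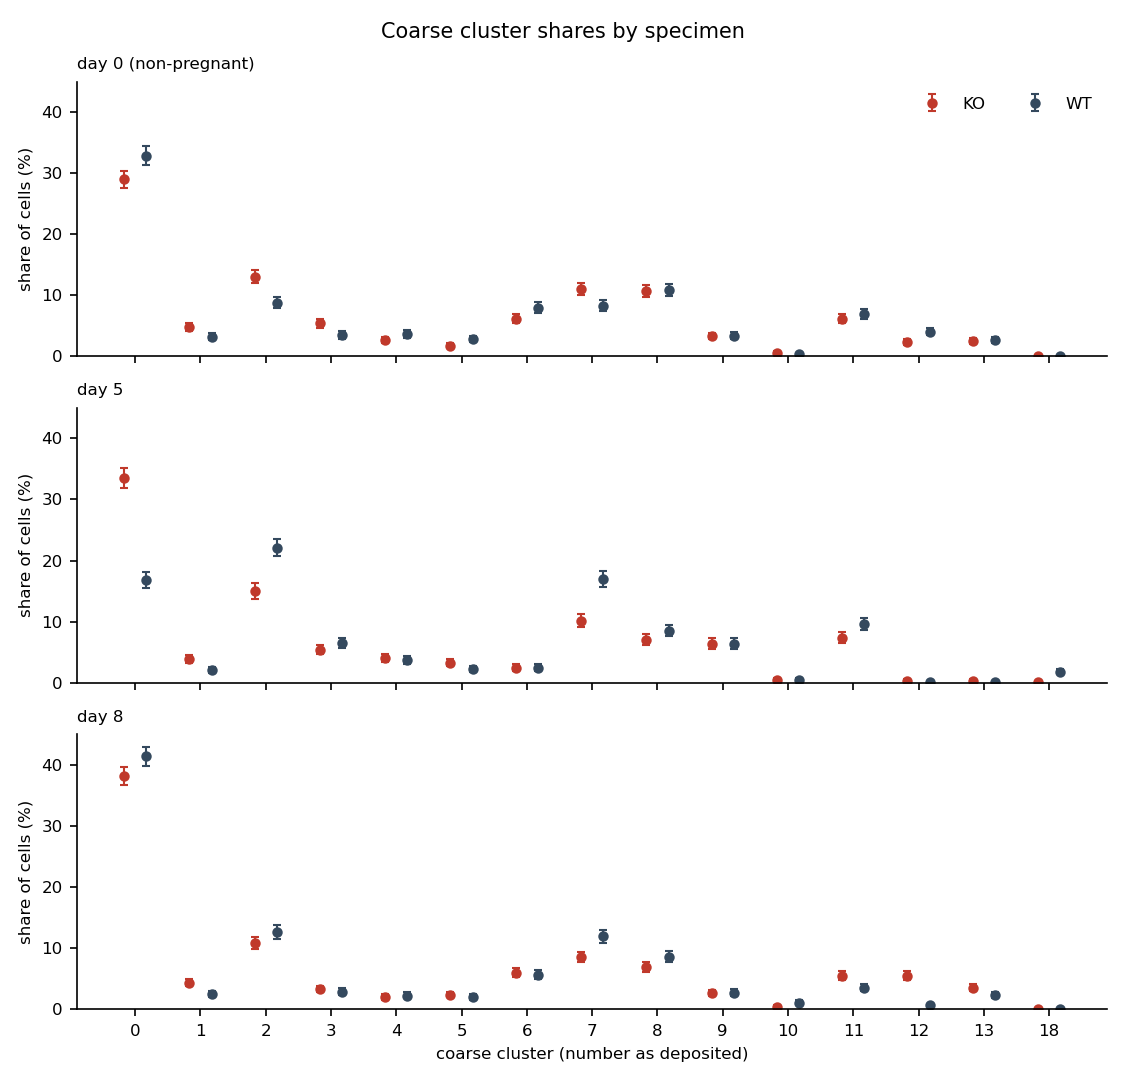
Share of each specimen's cells (%, y axis) in the 15 tested coarse clusters (x axis, numbered as deposited) at days 0, 5 and 8, KO left of WT; points are single specimens with exact 95% binomial intervals. Coarse cluster 0 is between 29.0% and 41.4% in all but the WT day 5 specimen, which is at 16.8% while its coarse clusters 2 and 7 are at 22.1% and 16.9%.

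The total variation distance, the percentage of cells that would have to change cluster for 2 compositions to match, measured how far specimens lay apart. At the coarse resolution KO and WT were 10.8% apart at day 0, 20.7% at day 5 and 11.2% at day 8. The pools of one specimen, repeat runs of one cell mixture with fewer cells each, were 3.68 to 7.40% apart. The distance between 2 animals of one genotype and day was not measured, so these distances do not separate genotype from animal. Day 5 was 13.9% from day 0 in KO and 32.8% in WT, and day 8 was 17.0% from day 5 in KO and 31.6% in WT. Days 0 and 8 were 13.96% apart in KO and 16.7% in WT. The WT day 5 specimen was therefore the one farthest from its own genotype's other days. At the fine resolution the genotypes were 12.4, 25.8 and 17.99% apart at days 0, 5 and 8, and the pools of one specimen were 8.16 to 13.1% apart.

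Depth per cell moved with the genotype at days 5 and 8 and not at day 0. Among coarse clusters with at least 20 cells in both specimens of a day, the KO median of UMIs was the higher one in 6 of 13 at day 0, in 11 of 11 at day 5 and in 11 of 13 at day 8. The median ratio of KO to WT was 0.999 at day 0, 1.35 at day 5 and 1.16 at day 8. In coarse cluster 0 the medians were 6961, 6515 and 7638 UMIs in KO at days 0, 5 and 8, against 7388, 4808 and 6520 in WT. Over whole specimens, median UMIs averaged 6088 ± 777 in KO and 5250 ± 1249 in WT (SD, n = 3 each), a difference with p = 0.5 in an exact two-sided permutation test that swaps genotypes within days. Its 8 arrangements allow no p below 0.25. Median mitochondrial percent was higher in KO on 3 of 3 days, 2.72 ± 0.20% in KO and 2.66 ± 0.14% in WT (SD, n = 3 each, exact permutation p = 0.25). In each pool alone it was higher in KO on 2 of 3 days. The part of depth in the shares of days 5 and 8 was not tested, and without gene counts cells could not be thinned to 1 depth.

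**Figure D4:**
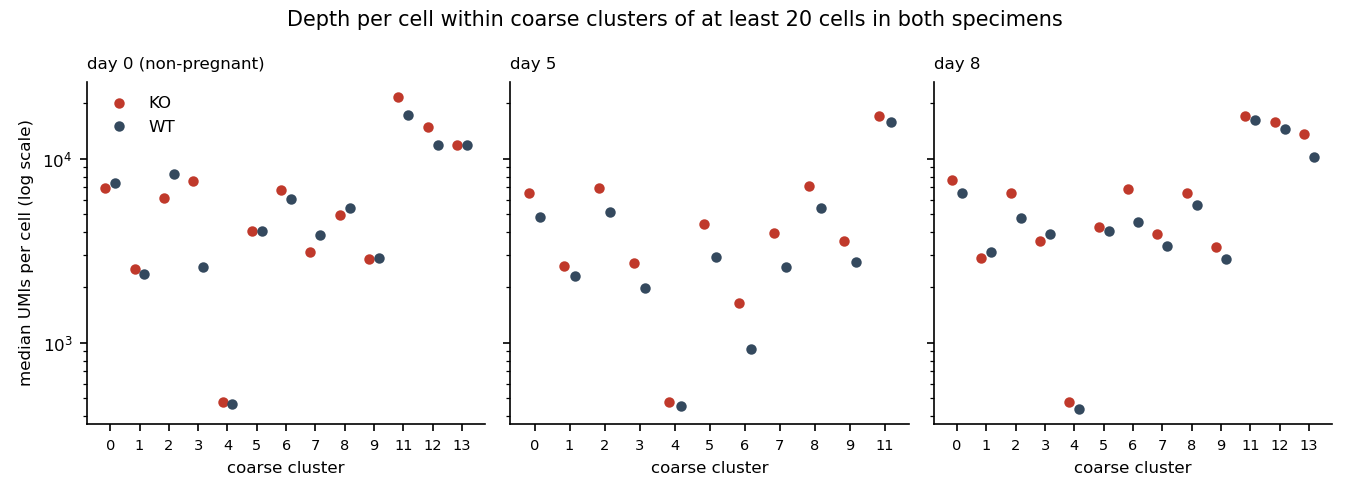
Median UMIs per cell (log scale, y axis) in each coarse cluster (x axis) with at least 20 cells in both specimens of a day, KO left of WT, at days 0, 5 and 8. KO lies above WT in 6 of 13 clusters at day 0, 11 of 11 at day 5 and 11 of 13 at day 8.

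Coarse cluster 12 had the highest share of G2M calls among coarse clusters. Of its 512 cells, 83.2% were called G2M and 11.3% S, and it was RNA-rich with a median of 14822.5 UMIs. G2M-rich cells also lay outside it. Fine cluster 34, a part of coarse cluster 2, had 85.0% G2M calls, and fine cluster 24, mostly in coarse cluster 1, had 66.7%. Coarse cluster 12 took 2.35% of KO cells at day 0 (interval 1.91 to 2.85), against 4.05% of WT cells (3.44 to 4.72). At day 5 it was rare in both genotypes, with 10 KO and 2 WT cells, or 0.302% (0.145 to 0.555) and 0.0581% (0.00704 to 0.210). At day 8 it took 5.44% of KO cells (4.77 to 6.17) and 0.590% of WT cells (0.370 to 0.893). KO was thus lower than WT before pregnancy and higher at day 8, with intervals apart on both days. Both pools of a specimen gave nearly the same values, with 5.36% and 5.53% in the KO day 8 specimen and 0.555% and 0.631% in the WT day 8 specimen. The log2 difference over the 3 pairs was 1.35 (SE 1.10, adjusted p 0.822, edgeR). It was 3.102 (SE 0.43, adjusted p 4.96e-05) without the day 0 pair and -0.028 (SE 0.82, adjusted p 0.995) without the day 8 pair (edgeR). In the fit of all 28 specimens the day 8 difference was 3.20 (SE 1.70, adjusted p 0.949, edgeR).

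Coarse cluster 12 consisted of fine clusters 39 and 40, and on each day both parts had KO on the same side of WT as the whole. Fine cluster 39, with 71.3% G2M and 20.8% S calls, took 1.60, 0.121 and 3.18% of KO cells at days 0, 5 and 8, against 1.63, 0 and 0.376% of WT cells, where the count of 0 allows up to 0.0872% (3 counts of the total). Fine cluster 40, with 97.0% G2M and no S calls, took 0.742, 0.211 and 2.29% of KO cells, against 2.42, 0.0581 and 0.215% of WT cells. At day 0 the lower KO share of coarse cluster 12 was therefore in fine cluster 40, and at day 8 both parts were higher in KO. The log2 difference of fine cluster 39 over the pairs was 1.64 (SE 0.82, adjusted p 0.606, edgeR).

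The share of cells called G2M averaged 11.6 ± 1.7% in KO and 12.9 ± 2.6% in WT (SD, n = 3 each, exact permutation p = 0.75), and that of S calls 4.56 ± 0.09% in KO and 5.24 ± 1.84% in WT (p = 1, same test). By day, 10.1, 11.3 and 13.5% of KO cells were called G2M at days 0, 5 and 8, against 12.6, 15.6 and 10.4% of WT cells. Coarse cluster 12 supplied 16.3, 2.14 and 34.3% of these calls in KO and 28.8, 0.373 and 4.12% in WT. Outside it, 8.68, 11.1 and 9.39% of KO cells were called G2M, against 9.33, 15.5 and 10.0% of WT cells. KO was therefore the lower one on each day outside coarse cluster 12, and at day 8 the order of the whole specimens came from that cluster.

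**Figure D5:**
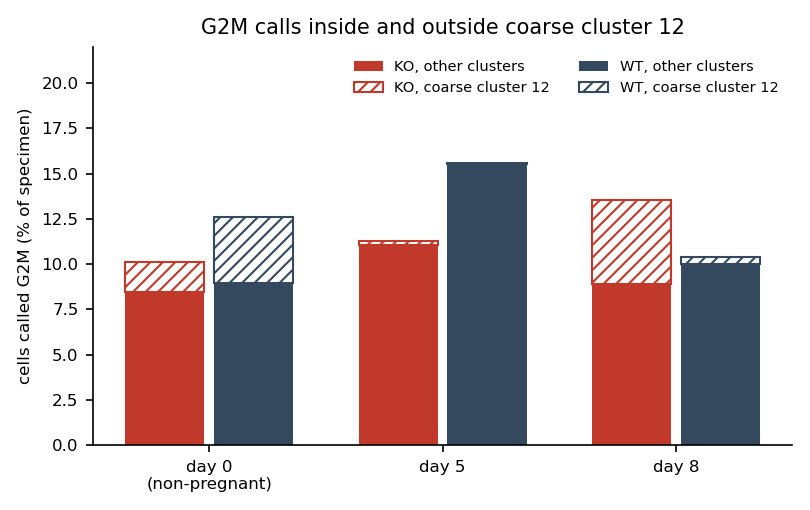
Cells called G2M as a percentage of each specimen (y axis) at days 0, 5 and 8 (x axis), KO left of WT, split into calls in coarse cluster 12 (hatched) and in all other clusters (solid). The hatched part is larger in WT at day 0 and larger in KO at day 8, where coarse cluster 12 holds 34.3% of KO and 4.12% of WT G2M calls.

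Within coarse clusters, phase shares were tested with limma on the log2 odds of a call. In the 11 clusters with at least 20 cells in each specimen, 0 of 22 tests (0.0%) passed an adjusted p of 0.05 and 0 had an unadjusted p under 0.05, and edgeR with the cluster's cells as offset also called 0. Of 11 clusters, KO had the lower S share on all 3 days in 3 and the higher one in 0, and the lower G2M share on all 3 days in 1 and the higher one in 0. The 3 for S were coarse clusters 0, 2 and 9. Among cells of at least 2000 UMIs only coarse cluster 2 of these 3 still had the lower KO share on every day. There the day 0 shares of S calls were 1.86% in KO and 1.61% in WT in coarse cluster 0, and 6 of 100 KO cells against 3 of 81 WT cells in coarse cluster 9. Coarse cluster 9 had S calls in 10.9, 9.91 and 9.09% of KO cells at days 0, 5 and 8, against 12.5, 17.7 and 16% of WT cells, a log2 odds difference of -0.69 (SE 0.55, adjusted p 0.772, limma) over cells of any depth. Coarse cluster 2 had S calls in 4.24, 2.42 and 3.56% of KO cells, against 5.41, 4.74 and 4.05% of WT cells, a difference of -0.51 (SE 0.55, adjusted p 0.772, limma). Intervals overlapped on each day in both clusters. The 1 for G2M was coarse cluster 3, with 4.89, 8.43 and 5.88% in KO and 5.30, 9.38 and 12.5% in WT. It too lost its side at day 0 among cells of at least 2000 UMIs, with 2.89% in KO and 2.56% in WT.

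Single days were far apart in a few clusters. In coarse cluster 0, 6.35% of KO and 5.84% of WT cells were called G2M at day 0. At day 5 it was 10.7% of KO cells (interval 8.90 to 12.6) and 28.4% of WT cells (24.8 to 32.3), and at day 8 it was 6.25% (5.11 to 7.55) and 9.15% (7.76 to 10.7). The log2 odds difference over the pairs was -0.73 (SE 0.55, adjusted p 0.772, limma). With only cells of at least 2000 UMIs, 10.0% of KO and 27.6% of WT cells of coarse cluster 0 were called G2M at day 5. The WT day 5 excess was as large there, while the median depths of those cells still differed, with 6619 UMIs in KO and 5176.5 in WT. Its S calls were at 2.39, 3.07 and 2.59% in KO at days 0, 5 and 8, against 2.64, 8.67 and 3.18% in WT, a log2 odds difference of -0.67 (SE 0.55, adjusted p 0.772, limma). In coarse cluster 2 the G2M share was lower in KO at day 0, 13.6% (10.9 to 16.8) against 27.3% (22.6 to 32.5) in WT, and higher in KO at day 8, 21.8% (18.1 to 25.9) against 12.2% (9.34 to 15.5). That order matched coarse cluster 12, in which KO was also lower at day 0 and higher at day 8. At day 5 coarse cluster 2 had 9.88% G2M calls in KO and 10.1% in WT.

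The days themselves were compared with the genotype as a term. Between day 0 and day 5, 5 of 45 fine (11.1%) and 3 of 15 coarse clusters (20%) passed, and between day 5 and day 8, 3 fine (6.67%) and 3 coarse clusters (20%) passed (edgeR). Coarse cluster 13, which holds the same 444 cells as fine cluster 28, took 2.47, 0.363 and 3.44% of KO cells at days 0, 5 and 8, against 2.60, 0.116 and 2.23% of WT cells. It fell by day 5 in both genotypes, at -3.49 on the log2 scale (SE 0.50, adjusted p 0.0163, edgeR), and rose again by day 8, at 3.59 (SE 0.50, adjusted p 0.0189, edgeR). Coarse cluster 6 followed the same course, at 6.15, 2.45 and 5.97% in KO and 7.99, 2.44 and 5.58% in WT. Its log2 differences were -1.52 (SE 0.19, adjusted p 0.0163) and 1.24 (SE 0.19, adjusted p 0.0189, edgeR). Coarse cluster 9 went the other way, at 3.28, 6.40 and 2.65% in KO and 3.36, 6.40 and 2.68% in WT, with log2 differences of 0.95 (SE 0.13, adjusted p 0.0163) and -1.26 (SE 0.13, adjusted p 0.0154, edgeR). In this last cluster the KO and WT intervals overlapped on each day.

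At the fine resolution, cluster 16, a part of coarse cluster 6, took 2.18, 0.211 and 1.68% of KO cells at days 0, 5 and 8, against 2.05, 0.116 and 0.617% of WT cells, and both contrasts passed with log2 differences of -3.75 (SE 0.54, adjusted p 0.0130) and 2.72 (SE 0.54, adjusted p 0.0421, edgeR). Fine cluster 28 passed in both as well, at -3.49 (SE 0.49, adjusted p 0.0130) and 3.59 (SE 0.49, adjusted p 0.0192, edgeR). Fine cluster 52 passed with the opposite signs, at 3.07 (SE 0.69, adjusted p 0.0448) and -4.01 (SE 0.73, adjusted p 0.0415, edgeR), and its day 5 share was 0.634% in KO and 3.17% in WT. Fine clusters 23 and 39 passed only between day 0 and day 5, at -1.63 (SE 0.37) and -5.16 (SE 1.15), with an adjusted p of 0.0448 each (edgeR). Without the WT day 5 specimen 0 clusters were called in either contrast at either resolution. Without the KO day 5 specimen 2 fine clusters were called between day 5 and day 8, numbers 0 and 52, and 0 otherwise. In the fit of all 28 specimens 0 of 51 fine and 0 of 17 coarse clusters were called in both contrasts. At an unadjusted p under 0.05 there were 5 and 3 fine and 3 and 2 coarse clusters. Fine cluster 52 was not tested in that fit, nor in the fit without the WT day 5 specimen. Median hashing UMIs per cell were 1662 in KO and 1785 in WT at day 0 and between 167 and 181 in the 4 specimens of days 5 and 8. Their part in the contrast with day 0 was not tested.

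The genotype difference of these days was set against that of the later inter-implantation specimens (days 12, 14, 16 and 18, with 1 KO and 1 WT specimen each). Those came from the second experiment, so period and experiment cannot be told apart. The interaction passed in 4 of 48 fine (8.33%) and 1 of 18 coarse clusters (5.56%), each with the smaller KO excess, or none, on the early days (edgeR). In coarse cluster 13 the log2 difference of KO against WT was lower by 4.37 on the early days (SE 0.94, adjusted p 0.000209, edgeR). Its early shares were 0.363 to 3.44% in KO and 0.116 to 2.60% in WT, against 2.85 to 6.78% in KO and 0.0565 to 0.233% in WT at days 12 to 18. For fine cluster 35 the interaction was 1.93 (SE 1.10, adjusted p 0.416, edgeR). It was higher in KO on 3 of the 4 later days, and at day 18 it was at 0.961% in KO and 3.00% in WT. Coarse cluster 1 was also higher in KO on 3 of the 4 later days, at 10.2 to 16.6% in KO and 8.03 to 23.5% in WT, where it was a larger population than on any early day.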

How the data were processed

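Droplet 3' single-cell RNA libraries were made from hashed, pooled uterine cells of the specimens named above. Cell Ranger and Seurat were used with build mm10, per the submitters' processing notes. How cells were filtered, assigned to specimens and cleared of doublets is not given in the sources used here. No doublet caller was run. The authors deposited, per cell, raw counts of UMIs, genes and hashing UMIs, the percent of mitochondrial and ribosomal UMIs, a phase call and Louvain clusters at 9 resolutions. No deposited column was left out for want of a sample.

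Cells per cluster and specimen were tested with edgeR 4.0.16 (quasi-likelihood, total cells as library size, no composition factor, day and genotype as terms), in clusters with at least 10 cells on average. Phase shares were tested with limma 3.58.1 on logit shares with 0.5 cells added. An SE from edgeR is the size of the log2 difference over the root of its F statistic, and an SE from limma comes from limma's own variance estimate. P-values were adjusted by Benjamini-Hochberg, threshold 0.05. DESeq2 1.42.0, limma, TMM factors, other filters, single pools and left-out pairs were alternatives. Single-day contrasts were chosen after seeing the data. Scripts were tested on simulated counts. The day pairs the specimens by design, and no mouse is shared between genotypes as far as the labels tell. With 1 specimen per genotype and day, p-values of KO against WT over the pairs rest on the 3 paired differences. Those of the day contrasts rest on 1 KO and 1 WT specimen per day, and so do those of the interaction. None of these p-values measures the spread between replicate specimens. The limma phase tests all had the same SE (0.55), so their p-values do not measure the spread of each cluster's own 3 differences. Single-day fits took their spread from the replicated strata of the series, none of them inter-implantation. Coarse clusters were all eligible for naming. Fine clusters were named if called, if apart on every day on 1 side, if among the 5 largest, or as parts of a named coarse cluster, and all others after their values were seen. The part and these lists were chosen with earlier results of these data known.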

Additional observations from a re-analysis of the deposited data

Results flagged for a closer look

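The difference between KO and WT on days 0, 5 and 8 departed from that on days 12 to 18 in 5 clusters, by edgeR's test of the interaction. The 2 periods were run in different experiments. In fine cluster 28 the log2 difference was lower on the early days by 4.33 (value -4.33, SE 0.75, adjusted p 0.000174), and coarse cluster 13 holds the same early cells (value -4.37, SE 0.94, adjusted p 0.000209). In fine cluster 13 it was lower by 3.49 (value -3.49, SE 0.71, adjusted p 0.000844). Early shares of fine cluster 13 were 0.575, 0.846 and 1.27% in KO at days 0, 5 and 8, against 0.525, 0.320 and 1.05% in WT, and later shares were 2.67 to 13.6% in KO and 0.127 to 0.509% in WT. In fine cluster 42 it was lower by 3.59 (value -3.59, SE 1.00, adjusted p 0.0205). In fine cluster 9 it was lower by 2.58 (value -2.58, SE 0.74, adjusted p 0.0205). The last 2 calls ended in 4 and 5 of the 7 fits that left out 1 day, and the calls of fine clusters 28 and 13 and coarse cluster 13 ended in 0 of 7.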

How the results depend on the processing

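Counts of called clusters depended on the setting. KO against WT called 1 fine cluster, number 35, with TMM factors, DESeq2, no minimum of cells, at least 30 cells on average, cells of at least 500 genes or a total without coarse cluster 0, and 2 in pool 10 alone. Resolutions 1 and 1.5 called 1 each. Leaving out 1 pair gave 0 to 7 fine and 0 to 2 coarse calls, and without the day term (no replicate block) the calls were 0 and 0. Day 5 against day 0 called 8 fine clusters with TMM factors or without coarse cluster 0, 10 in pool 10 alone, 3 with limma and 0 with all 28 specimens (coarse 0). Day 8 against day 5 called 11 fine clusters among cells of at least 500 genes, 6 at up to 10% mitochondrial UMIs (coarse 5), 8 with TMM factors, without coarse cluster 0 or at 30 cells, 12 and 7 in pools 9 and 10, 5 with no minimum, 7 without the genotype term (no replicate block) and 0 with all 28 specimens (coarse 0). Leaving out 1 specimen gave 0 to 12 fine and 0 to 8 coarse calls for day 5 against 0, and 0 to 14 and 0 to 7 for day 8 against 5. The interaction called 2 coarse clusters with limma or DESeq2, and 2 to 10 fine and 1 to 5 coarse when 1 day was left out. KO was higher on all 3 days in 2 coarse clusters in pool 10 or among cells of at least 500 genes, and lower in 1 fine cluster in pool 9 and 2 among cells of at least 500 genes. In pool 9, 0 fine and 0 coarse clusters kept one side with intervals apart on every day. The day 8 distance was 17.99% at the fine resolution. With 1 pair left out, the log2 difference ran between -0.15 (without day 5) and 0.43 in coarse cluster 0 and between -0.028 (without day 8) and 3.102 in coarse cluster 12. The cause of these changes was not tested.

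A fit without 1 pair rests on 2 pairs, and 1 specimen per genotype and day cannot separate genotype from animal. Fine clusters with few WT cells, such as fine cluster 35 with 19, 3 and 7 at days 0, 5 and 8, are limited by counting.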
